A study of Drosophila melanogaster with 6 samples.

Results

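Head-to-head genes are neighbours that are transcribed away from each other from start sites that lie close together. The set described here holds 516 such pairs on the autosomes, with 1032 genes of the 5528 transcripts in the deposited sheets (18.7%). A pair was formed where the start of a minus strand gene lay 0 to 500 bp upstream of the start of a plus strand gene, with both genes under 20 kb and on neither chromosome X nor chromosome 4. Among the genes in the sheets, the rule used position and length alone. The sheets hold only genes that passed a filter on the adjusted p, given below, in some comparison. Both genes of a pair therefore had to pass that filter. A gene whose divergent neighbour is not in the sheets counts among the other genes. No gene belonged to more than 1 pair. The pairs were spread over the 4 large autosome arms, with 114 on 2L, 111 on 2R, 123 on 3L and 168 on 3R.

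The data are PRO-seq measurements in S2 cells, a Drosophila line that was derived from embryos and resembles blood cells. PRO-seq runs nascent RNA on by a labelled nucleotide in nuclei and reads where each transcript ends, which places engaged RNA polymerase II (Pol II) on either strand. Cells received double-stranded RNA against BEAF, against the mRNA of polybromo (Pbro), or against bacterial LacZ as the control, at 150 µg in each of 2 rounds of 2.5 days. Each of the 3 treatments had 2 replicate libraries, and the same LacZ libraries serve every comparison. No genetic change was named in the labels for any group.

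BEAF is a DNA-binding insulator protein that sits near the start sites of many genes, often between divergently transcribed neighbours. Pbro belongs to the PBAP remodeling complex, a form of the Brahma complex that moves or evicts nucleosomes. Insulator proteins are best known for tests in which they keep an enhancer or a silenced region from acting on a promoter across them. Divergent neighbours share one stretch of open chromatin, while each carries its own core promoter and its own early elongation complex. At many fly genes Pol II pauses shortly after initiation, and the promoter-proximal signal then reports paused Pol II while the gene body signal reports productive elongation. The comparison of partners asks whether genes that start so near each other changed together when either protein was depleted.

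Values below are log2 fold changes, each knockdown over the LacZ control, as deposited by the authors for the promoter-proximal window ("promoter") or the gene body. Down and up calls are those of the authors' DESeq2 test at an adjusted p below 0.05, while a value over 0.9 put a gene in the unchanged class. What lies between was not analysed here. The listed genes are therefore a selected set, and a gene that is not listed in a comparison is neither called nor known to be flat in it. The sheets carry no reads or values per library, so spread between libraries enters through the adjusted p alone. Library totals were not used here. Of 10 hemocyte markers used to check the S2 label, 9 were in the sheets, and 0 of these were members. The polybromo gene was not a member, and after Pbro RNAi its own fold changes were -0.11 (promoter) and 0.03 (gene body), both in the unchanged class. RNAi removes mature mRNA, so nascent transcription of the target does not check the knockdown.

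The start sites of the 516 pairs lay 150 to 500 bp apart, with a median of 317 bp and quartiles of 268 and 393.25 bp. The authors counted reads over nonoverlapping genes alone, so closer or overlapping neighbours may be missing from the sheets. Member genes were 801 to 19068 bp long. Their median length was 2086 bp, against 2448 bp for the 3293 other autosomal genes under 20 kb. The closest pair was CG1360 and scra, at 150 bp, where scra encodes the actin-binding protein anillin. Many members serve general cell functions. The 14 lists of such functions took in 183 members, in 162 of the pairs, and 21 pairs had both genes on a list. Examples are Cdk1, the mitotic kinase, beside mRpS7, a mitochondrial ribosomal protein, and brm, the ATPase of the Brahma complex, beside Arl1, a small GTPase of the Golgi.

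Over the 4 comparisons there were 45 calls on members, 32 down and 13 up. These totals are not read as a trait of the members, and shares over all listed genes follow by comparison. The calls fell on 42 genes in 40 pairs, which left 990 members with no call and 476 pairs in which neither gene was called in any comparison. A member with no call was not always listed, since 615 of the 1032 were not listed in the BEAF promoter. A change of at least 2-fold was reached by 10 of the 45 calls. Of the called genes, 22 lay on the minus and 20 on the plus strand. Their median length was 2508 bp, and the median distance was 350 bp in pairs with a call and 315 bp in pairs without.

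After BEAF RNAi, 11 of 417 listed members were down in the promoter (2.64%), beside 2.20% of all genes listed in that comparison. Up calls took in 6 members (1.44%), beside 2.67% of all listed genes. In the gene body 9 of 964 listed members were down (0.934%) and 4 were up (0.415%). The shares over all genes listed there were 1.33% down and 0.416% up. The member shares after BEAF RNAi were thus near the background, a little above it for promoter down calls and at or below it elsewhere.

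After Pbro RNAi the members stood further from the background. In the promoter 5 of 494 listed members were down (1.01%), beside 13.2% of all listed genes. Among other autosomal genes under 20 kb, 264 of 1511 were down (17.5%). In the gene body 7 of 853 listed members were down (0.821%), beside 5.45% of all listed genes and 153 of 2364 other autosomal genes (6.47%). Up calls were fewer: 2 members in the promoter (0.405%) beside 1.87%, and 1 in the gene body (0.117%) beside 1.09%. The gap was also there when genes that were not listed were counted in. Counted over all genes of each group, listed or not, promoter down calls after Pbro RNAi took in 0.484% of members and 8.02% of the other autosomal genes, and gene body down calls 0.678% and 4.65%. Members were listed at least as often as the others, at 47.9% against 45.9% in the promoter and 82.7% against 71.8% in the gene body.

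**Figure D1:**
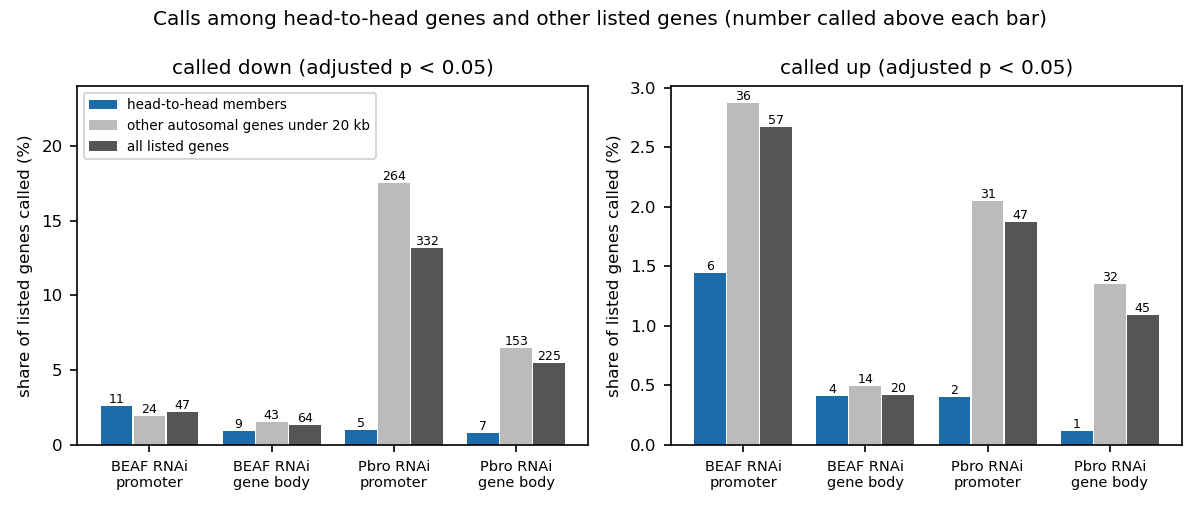
Share of listed genes called down (left) and up (right) in each of the 4 comparisons, in percent, for head-to-head members, other autosomal genes under 20 kb and all listed genes, with the number of called genes above each bar. After BEAF RNAi the bars of members stand near or below the others, except for promoter down calls (2.64% of members), while after Pbro RNAi 5 members against 264 other autosomal genes were down in the promoter.

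The members listed as unchanged lay close to 0 in every comparison. Their median was 0.00 in the BEAF promoter (400 genes) and 0.01 in the BEAF gene body (951 genes). It was 0.02 in the Pbro promoter (487 genes) and 0.01 in the Pbro gene body (845 genes). The medians over all unchanged genes were 0.00, 0.01, 0.01 and 0.02 in the same order. The unchanged members covered -0.18 to 0.17 in the BEAF promoter, -0.34 to 0.26 in the BEAF gene body, -0.25 to 0.25 in the Pbro promoter and -0.27 to 0.23 in the Pbro gene body. All 4 comparisons listed 204 members, and 196 of these were unchanged in each.

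The largest change of any member was the loss of Pol II from CG9641 after BEAF RNAi. CG9641 (chr2L:2974854-2976859, dm3, minus strand) fell in both regions, with -2.84 for the promoter (adjusted p = 5.62e-39) and -1.69 for the gene body (adjusted p = 3.65e-25). Its partner CG3165 starts 272 bp away (chr2L:2977131-2978501, plus strand). CG3165 was unchanged in the BEAF gene body, at 0.03, and was not listed in the BEAF promoter. After Pbro RNAi both genes were unchanged in the gene body, at 0.08 for CG9641 and 0.04 for CG3165. In the gene body after BEAF RNAi, where both partners were listed, the fall was on one side of the shared start region.

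The next promoter calls after BEAF RNAi were on genes of varied roles. CG11168 fell by 1.70 (adjusted p = 3.02e-10), and its partner CG31120, 269 bp away, was not listed there and stood at 0.05 in the gene body. The gene mrn encodes a subunit of TFIIH, the general factor that opens DNA at the start site. It fell by 1.17 in the promoter (adjusted p = 1e-05) and was unchanged in the gene body, at -0.10. Its partner CG12301, 282 bp away, stood at 0.01 in the gene body. CG9386 fell by 0.77 (adjusted p = 0.00437) beside BckdhA, which encodes a subunit of the branched-chain ketoacid dehydrogenase. Asap, an Arf GTPase-activating protein of vesicle traffic, fell by 0.81 (adjusted p = 0.00483) beside Nup50, a nuclear pore protein. Neither BckdhA nor Nup50 was listed in the BEAF promoter.

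Falls of 0.64 to 0.80 were called on 4 more genes whose partners were not listed in the BEAF promoter. ND-SGDH, a subunit of mitochondrial complex I, fell by 0.80 (adjusted p = 0.0225) beside RhoGAP68F. CG33722 fell by 0.77 (adjusted p = 0.0177) beside CG9636. The zinc transporter gene foi fell by 0.64 (adjusted p = 0.0283) beside GstO1, a glutathione transferase. DCTN1-p150, the large subunit of the dynein activator dynactin, fell by 0.80, with an adjusted p of 0.0499 at the edge of the threshold. All but CG33722 of these 4 genes were unchanged in the BEAF gene body, where CG33722 was not listed.

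In the gene body, 7 further members fell without a promoter call. CG4210 fell by 1.37 in the BEAF gene body (adjusted p = 1.1e-05), and its partner CG6654, 345 bp away, stood at -0.00. Mad, the Smad protein that carries the Dpp signal to the nucleus, fell by 0.44 (adjusted p = 3.06e-05), while its partner gkt, a tyrosyl-DNA phosphodiesterase, stood at 0.12. Tudor-SN, a nuclease found in the RNA silencing complex, fell by 0.52 (adjusted p = 0.000926) beside mRpL17, which was not listed. CG3817 fell by 0.69 (adjusted p = 0.00227) beside Nup93-2, a nuclear pore protein at -0.01. Hsc70-5, the mitochondrial Hsp70 chaperone, fell by 0.42 (adjusted p = 0.00322) beside CG8531 at -0.08. TBC1D16, a protein of the Rab GTPase-activating type, fell by 0.73 (adjusted p = 0.0114) beside holn1 at -0.17. The amino acid transporter gene gb fell by 0.40 (adjusted p = 0.0389) beside CG5815 at 0.07. The listed partner was in the unchanged class in each of these pairs.

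A change in both regions of a knockdown was seen at CG9641 and at gammaTub37C, which encodes the maternal form of gamma-tubulin (chr2L:19183957-19185724, minus strand). After BEAF RNAi gammaTub37C stood at -0.84 at its promoter with an adjusted p of 0.0196, and over its body at -0.69 with an adjusted p of 5.97e-05. Its partner pigeon starts 350 bp away and was unchanged in all 4 comparisons, at -0.09 in the BEAF promoter, -0.07 in the BEAF gene body, -0.21 in the Pbro promoter and -0.03 in the Pbro gene body. The gene foi was the member called in both knockdowns, down in the BEAF promoter and, at -0.52, in the Pbro gene body (adjusted p = 1.13e-06). In the other 2 comparisons foi was unchanged, at -0.06 in the BEAF gene body and -0.07 in the Pbro promoter. Its partner GstO1, 323 bp away, stood at -0.21 and 0.05 in the 2 gene body comparisons.

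Members also rose after BEAF RNAi. In the promoter CG7564 rose by 1.05 (adjusted p = 4.51e-05), CG8929 by 0.73 (adjusted p = 0.00547) and CG3744 by 0.80 (adjusted p = 0.0167). Sans rose by 0.74 (adjusted p = 0.0288), Asx, a gene of the Polycomb group, by 0.80 (adjusted p = 0.0432), and orb, an RNA-binding regulator of translation, by 0.80 (adjusted p = 0.0499). The partners CG11089 of CG3744, at 0.12, and Cdc16 of orb, at -0.08, were unchanged there. Cdc16 is a subunit of the anaphase-promoting complex. MED8 of Mediator, SCCRO3 and the polyadenylation factor Cpsf160 face CG8929, Sans and Asx and were not listed there. In the BEAF gene body CG17816 rose by 0.79 (adjusted p = 3.49e-06) and CG32436 by 0.72 (adjusted p = 0.000962). Surf6, a ribosome biogenesis protein, rose by 0.38 (adjusted p = 0.0076) and CG1965 by 0.35 (adjusted p = 0.0196). Their partners stood at 0.10 for ArgRS-m, the mitochondrial arginyl-tRNA synthetase, -0.06 for Tbc1d8-9, -0.11 for RhoGAP92B and 0.06 for CG1105.

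After Pbro RNAi the strongest promoter call was on CG32043 (chr3L:9454191-9455545, plus strand), which fell by 1.44 (adjusted p = 1.16e-05). Its partner CG3434 starts 299 bp away and stood at 0.19 in the same comparison. The gene hebe fell by 1.22 (adjusted p = 0.00731) beside CG1663 at -0.15. Buffy, a member of the Bcl-2 family of cell death regulators, fell by 0.90 (adjusted p = 0.0482) and the secreted factor gene magu dropped by 0.85 (adjusted p = 0.0173). Their partners Roc2, a RING protein of cullin ligases that starts 167 bp from Buffy, and sel were not listed in that promoter comparison. In the gene body Roc2 was unchanged, at 0.18, as was sel, at 0.10. RhoBTB rose by 0.62 (adjusted p = 0.032) beside Ide, the insulin-degrading enzyme, which was not listed there.

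In the Pbro gene body, MESR4 fell by 1.03 (adjusted p = 2.32e-10). The promoter of MESR4 was unchanged, at 0.05. CalpB, a calpain protease, fell by 0.79 (adjusted p = 6.5e-08), while Taf2, a TFIID subunit whose start lies 173 bp away, stood at -0.02. SMSr, an enzyme of sphingolipid synthesis, fell by 0.57 (adjusted p = 0.00534) beside smid at -0.07. Pect, an enzyme of phosphatidylethanolamine synthesis, fell by 0.46 (adjusted p = 0.0327) beside CG16972 at 0.03. CG3609 fell by 0.56 (adjusted p = 0.00467) and its partner CG15390, 190 bp away, was not listed. The gene that rose was pst, a gene of resistance to viruses, by 0.37 (adjusted p = 1.57e-05), beside Sec63 of the endoplasmic reticulum translocon at -0.10.

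Pairs with both genes called were rare, as were calls on members. At most 2.64% of listed members were called in one direction in any comparison. At such shares, almost no pair would have both genes called that way even if partners were unrelated. The lack of such pairs is therefore not read as a trait of the partners. No pair had both genes down or both genes up in a comparison, among 86 pairs with both genes listed in the BEAF promoter, 450 in the BEAF gene body, 118 in the Pbro promoter and 349 in the Pbro gene body. In 24 cases a called gene faced an unchanged partner, which had the sign of the called gene in 13 cases and the other sign in 11. In a further 17 cases the partner was not listed in that comparison. These unchanged partners lay between -0.09 and 0.12 in the BEAF promoter, -0.17 and 0.12 in the BEAF gene body, -0.15 and 0.19 in the Pbro promoter, and -0.10 and 0.11 in the Pbro gene body. The log2 fold changes of the called gene and the unchanged partner were a median of 0.75, 0.59, 1.34 and 0.57 apart in the same order. The sheets hold no fit of this difference between genes, so it was not tested. The called gene was picked for a low adjusted p and the unchanged partner for a high one. The narrow range of the partners and their distance from the called genes follow from that choice. They do not show whether partners responded separately. The promoter counts are small, since in the BEAF promoter 12 of the 17 partners of called genes were not listed. Read in the BEAF gene body, 16 of the partners of these 17 called genes were unchanged and 1 was not listed.

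**Figure D2:**
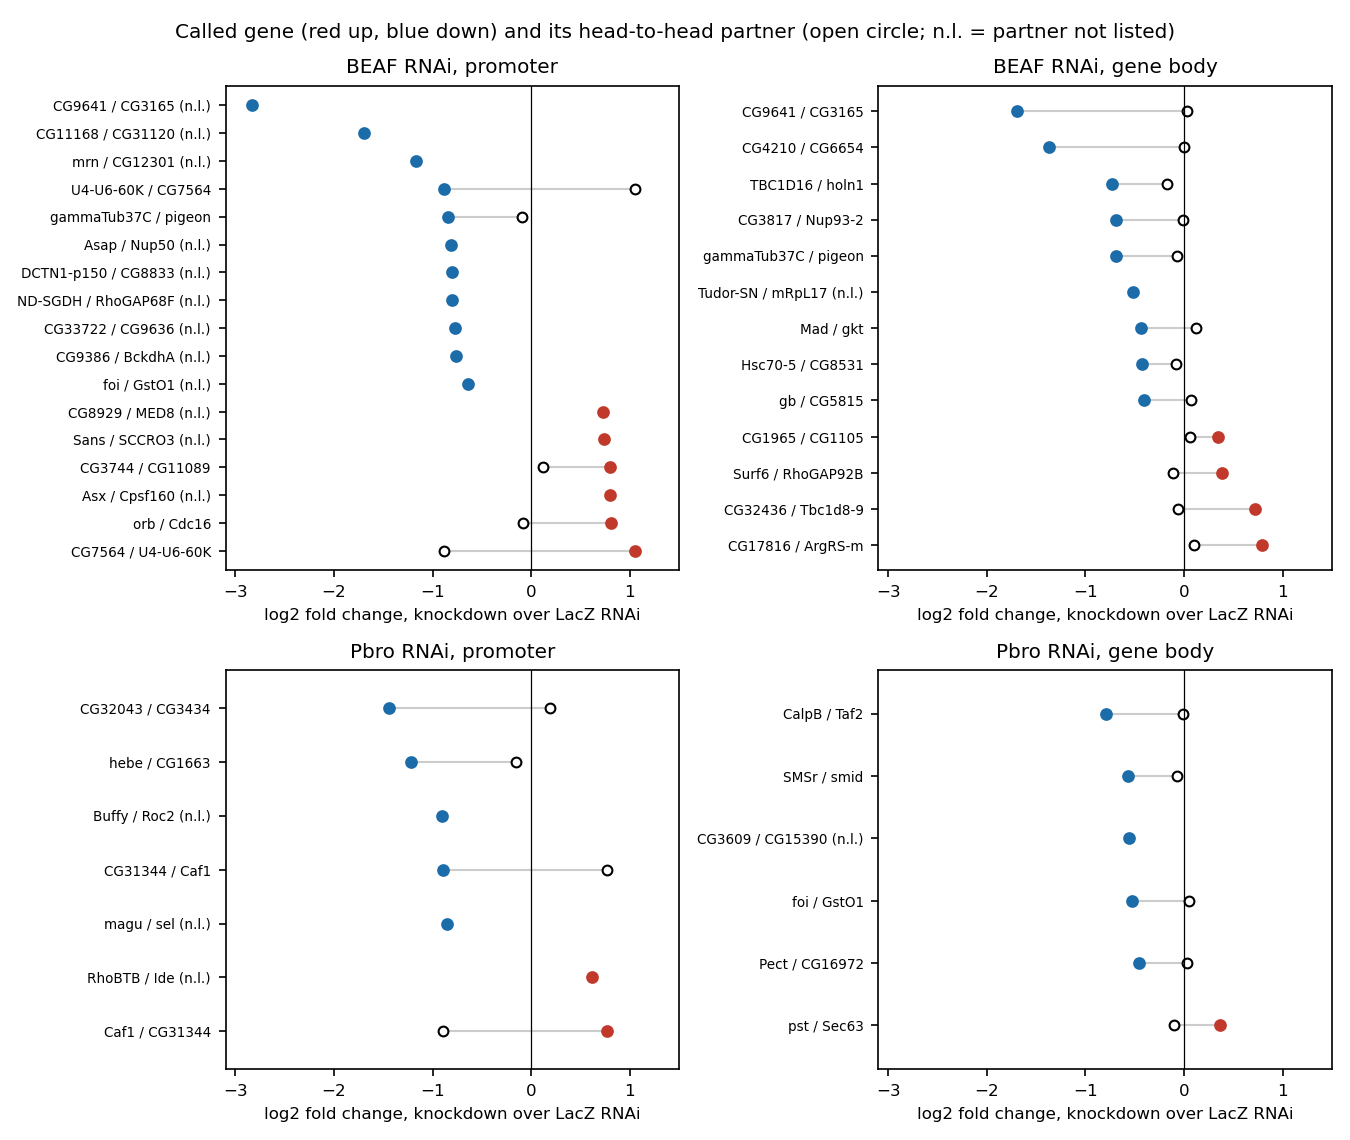
Log2 fold change of knockdown over LacZ RNAi for the called members, less 2 in the Pbro gene body that are not drawn (filled, blue down and red up) and its head-to-head partner (open circle where listed, n.l. where not), 1 panel per comparison. The open circles of unchanged partners sit between -0.17 and 0.19, and in the pairs U4-U6-60K with CG7564 and CG31344 with Caf1 the partners lie on opposite sides of 0.

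In 2 pairs both genes were called in a comparison, each time in opposite directions. After BEAF RNAi, in the promoter, CG7564 rose by 1.05 while U4-U6-60K, a protein of the U4/U6 particle of the spliceosome, fell by 0.88 (adjusted p = 0.00318). The genes start 380 bp apart on 3L, at chr3L:17504955-17507015 for U4-U6-60K and chr3L:17507395-17508984 for CG7564. Both were unchanged in the other 3 comparisons, with U4-U6-60K at -0.08 and CG7564 at 0.15 in the BEAF gene body. After Pbro RNAi, in the promoter, Caf1, a histone-binding subunit of several chromatin complexes, rose by 0.77 (adjusted p = 0.00109), while CG31344 fell by 0.90 (adjusted p = 0.00138). They start 278 bp apart, at chr3R:11049091-11051022 for CG31344 and chr3R:11051300-11053286 for Caf1. In the Pbro gene body Caf1 stood at 0.03 and CG31344 was not listed. In the 2 BEAF comparisons both were unchanged, at 0.08 and 0.04 for Caf1 and 0.12 and -0.05 for CG31344.

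Among pairs with both genes unchanged, the fold changes of partners were nearly unrelated. Across 82 pairs in the BEAF promoter Pearson's r was 0.02 and Spearman's rho 0.04. Across 438 pairs in the BEAF gene body r was 0.03 and rho 0.02. In the Pbro promoter r was 0.09 and rho 0.12 across 115 pairs, and in the Pbro gene body r was 0.03 and rho 0.03 across 342 pairs. These correlations run across pairs measured in the same libraries, the pairs are not replicates, and the limit on the adjusted p narrows both axes. The partners shared their sign in 43 of 82, 216 of 438, 65 of 115 and 173 of 342 pairs. Partners differed by a median of 0.08 to 0.10. With the called pairs included, r was -0.34 and rho 0.03 across 86 pairs in the BEAF promoter, and r was -0.15 and rho 0.08 across 118 pairs in the Pbro promoter. In the gene body r was 0.03 after BEAF RNAi (450 pairs) and 0.01 after Pbro RNAi (349 pairs). Each promoter set includes the pair called in opposite directions.

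**Figure D3:**
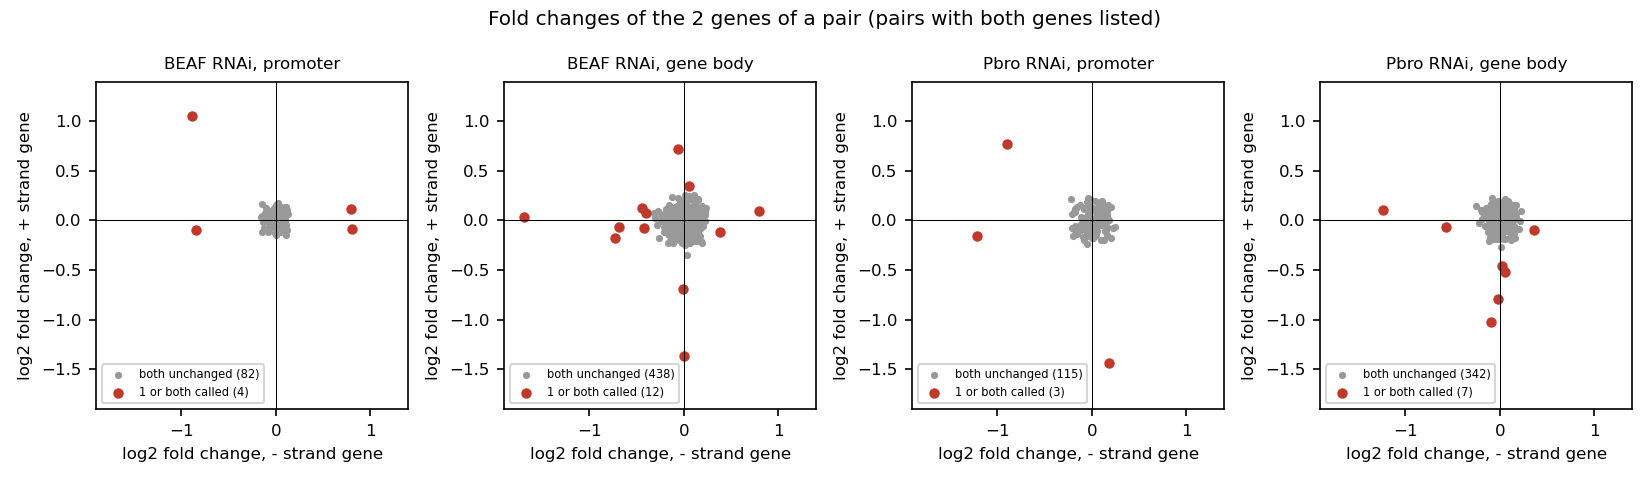
Log2 fold change of the minus strand gene (horizontal) against that of the plus strand gene (vertical) for pairs with both genes listed, 1 panel per comparison, with pairs of 2 unchanged genes in grey and pairs with a call in red. The red points lie along one axis or the other, except for 1 pair in each promoter panel that lies in the upper left, where the minus strand gene was down and the plus strand gene up.

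Few members were called in both regions of a knockdown. The authors report that most genes changed after BEAF RNAi changed in a single region too. After Pbro RNAi they also report genes changed in both regions, most of them down in both. No share over all genes stands beside the counts below, so they are not read as a trait of the members. Of the 17 members called in the BEAF promoter, 2 were down in the BEAF gene body, 11 were unchanged there and 4 were not listed. Of the 13 called in the BEAF gene body, 2 were down in the promoter, 3 were unchanged and 8 were not listed. None of the 7 members called in the Pbro promoter was called in the Pbro gene body, where 2 were unchanged and 5 were not listed. Of the 8 called in the Pbro gene body, 4 were unchanged in the Pbro promoter and 4 were not listed. The comparisons share the LacZ libraries, so these counts describe each gene and do not stand as independent measurements.

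By gene group, 183 members were on the lists of general cell functions. In the BEAF promoter 79 of them were listed, with 2 down and 0 up, beside 2.20% down and 2.67% up over all listed genes. In the BEAF gene body 173 were listed with 0 called, beside 1.33% down and 0.416% up. At these backgrounds few calls would fall on lists of such size, and the BEAF counts are not read as a result about the members. In the Pbro promoter 92 were listed with 0 down and 1 up, beside 13.2% down and 1.87% up over all listed genes. In the Pbro gene body 158 were listed with 0 called, beside 5.45% down and 1.09% up. Over the whole lists, members and other genes together, no gene was down in the Pbro promoter either. In the Pbro gene body the down calls over the whole lists were 1 of 31 translation factor genes and 1 of 43 chromatin and insulator genes. The lack of Pbro falls was thus shared by genes of these functions outside the pairs. The calls are the deposited DESeq2 calls, and unadjusted p-values are not used here. The 3 called members were U4-U6-60K, ND-SGDH and Caf1.

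The 8 cytoplasmic ribosomal protein genes had 0 calls, with list medians of 0.04 in the BEAF promoter, 0.01 in the BEAF gene body, -0.14 in the Pbro promoter (5 listed) and 0.00 in the Pbro gene body. The 13 mitochondrial ribosomal protein genes had 0 calls, and their medians ran from 0.00 to 0.05. The 10 tRNA synthetase genes, all listed in both gene body comparisons, stood at medians of 0.04 there. The 11 proteasome genes had gene body medians of 0.02 after BEAF RNAi and 0.00 after Pbro RNAi, again with 0 calls. The 19 genes of RNA polymerases, general factors and Mediator had 0 calls, with 17 listed in each gene body comparison at medians of 0.05 and 0.02. Splicing and mRNA processing held 21 members, of which U4-U6-60K was the called gene among 10 listed in the BEAF promoter. The 25 vesicle traffic genes, 19 ubiquitin system genes, 17 replication and cell cycle genes, 12 DNA repair genes and 8 nuclear pore genes had 0 calls in all 4 comparisons. Each of these lists had 3 to 23 members listed in a comparison, so a count of 0 says little by itself. Over the whole lists, members and other genes together, the BEAF promoter held 2 down and 1 up of 22 listed ubiquitin system genes, and 1 down and 3 up of 29 listed replication and cell cycle genes. In the Pbro promoter 0 of 24 and 0 of 33 genes of these lists were down.

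Members that encode subunits of the Brahma complexes were themselves unchanged wherever listed. The ATPase gene brm stood at -0.15 in the BEAF promoter, 0.07 in the BEAF gene body, -0.00 in the Pbro promoter and -0.05 in the Pbro gene body. Bap170, the PBAP subunit that carries an ARID domain, stood at 0.05, 0.01, -0.00 and -0.01 in the same order. Its partner is Trap1, a mitochondrial chaperone of the Hsp90 family. The core subunit gene mor faces Hel89B and stood at 0.04 in the BEAF promoter and 0.13 in the BEAF gene body. Snr1 faces mRpL44 and stood at 0.08 in both gene body comparisons. M1BP, which encodes a zinc finger protein bound to core promoters with Motif 1, was unchanged in all 4 comparisons, between -0.06 and 0.04. The mitotic kinase gene aurA, which starts 317 bp from CG3281, was unchanged at 0.02 in the BEAF gene body and -0.01 in the Pbro gene body.

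Of 44 adhesion, matrix and membrane surface genes in the sheets, 2 were members, and neither was called. In each promoter comparison 1 of the 2 was listed. Over all listed genes of that list, 15 of 25 were down in the Pbro promoter and 7 of 24 in the Pbro gene body. Of 37 immune genes, 6 were members with 0 calls, and 4 of these were listed in the Pbro promoter. Over the whole immune list 5 of 20 were down there. So few listed members of either list allow no comparison with the other genes of the list. The immune members include the adjacent pair GNBP2 and GNBP1, genes of microbe recognition that start 294 bp apart. In the Pbro promoter they stood at -0.17 and -0.13. In the BEAF gene body they stood at 0.15 and -0.13.

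The share of genes down after Pbro RNAi moved with the distance to the nearest divergent start. Autosomal genes under 20 kb were binned by that distance. Among members, the promoter down share was 1.35% up to 250 bp (1 of 74 listed), 1.56% over 250 and up to 300 bp, 0.00% up to 400 bp (0 of 167) and 1.60% up to 500 bp. Beyond the members it was 7.84% over 500 and up to 1000 bp (16 of 204), 11.6% up to 2000 bp, 14.3% up to 5000 bp and 17.8% up to 20000 bp. It reached 22.6% (138 of 611) for genes with a distance over 20000 bp. The gene body down share was 0.431% to 1.43% in the member bins and 4.68% to 7.07% in the bins beyond. After BEAF RNAi no such rise was seen in the promoter down calls. With growing distance, promoter down shares were 0.00% (0 of 60 listed), 3.70%, 2.84% and 2.78% in the member bins. Beyond the members they were 2.45%, 3.12%, 3.24%, 1.56% and 1.34%, lowest in the 2 farthest bins. These bins held at most 7 such calls each. BEAF gene body down shares, with growing distance, were 0.00%, 0.380%, 1.90% and 0.889% in the member bins. Beyond the members they were 0.870%, 3.14%, 0.962%, 1.64% and 1.64%. The distance counts neighbours in the sheets alone.

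**Figure D4:**
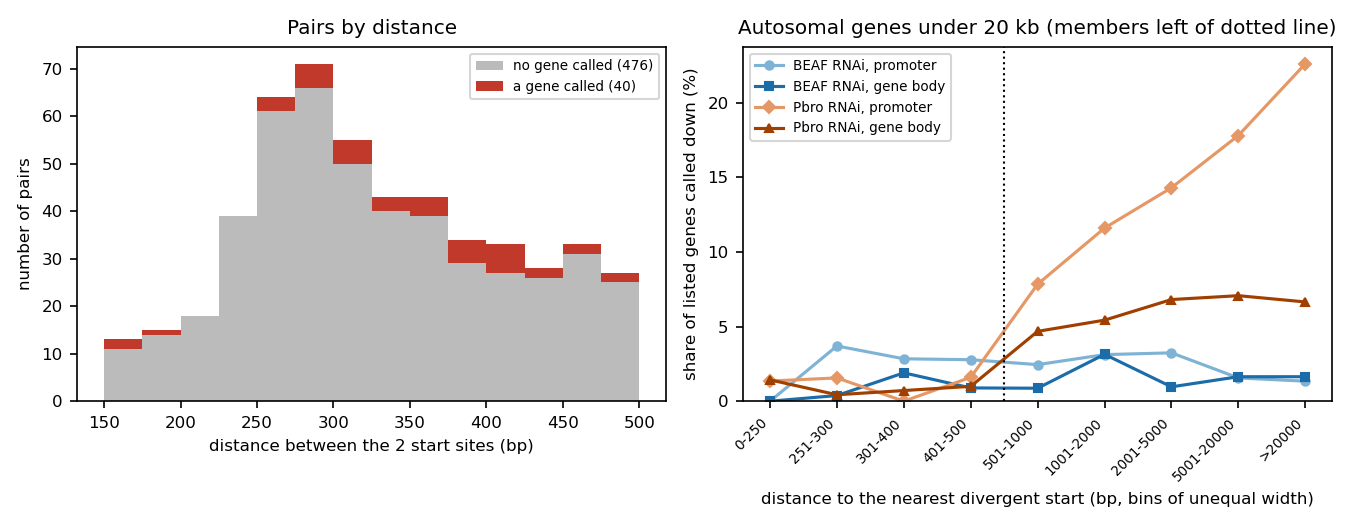
Left, number of pairs by distance between start sites in 25-bp bins, with the 40 pairs that held a call in red. Right, share of listed autosomal genes under 20 kb called down, in percent, by distance to the nearest divergent start, with members to the left of the dotted line; the Pbro promoter line stays at 0.00% to 1.60% among members and climbs to 22.6% over 20000 bp.

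The pairs with the shortest distances that held a call were those of Buffy (167 bp), CalpB (173 bp) and CG3609 (190 bp). All 3 calls came from Pbro RNAi and were down, and these were the calls among the 86 pairs up to 250 bp apart. They make up 1 of 74 listed members for the Pbro promoter, beside 13.2% of all listed genes. For the Pbro gene body they make up 2 of 140, beside 5.45%. After BEAF RNAi 60 members of these pairs were listed for the promoter and 161 for the gene body. At the BEAF shares over all listed genes, 0.416% to 2.67%, few calls would fall on them. The lack of BEAF calls is therefore not read as a trait of the closest pairs. After BEAF RNAi the closest pairs with a call were CG11168 with CG31120, at 269 bp, and CG9641 with CG3165, at 272 bp.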

How the data were processed

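PRO-seq libraries came from S2 cells after BEAF, Pbro or LacZ RNAi, with 2 replicates each; nothing in the labels ties same-numbered replicates to a shared culture. Per the methods and the submitters' processing notes, reads were trimmed with FastX, aligned to dm3 with Bowtie and counted over nonoverlapping genes in a promoter window, chosen as the stretch richest in reads near the start, and in the gene body. Because the window was chosen by its reads, a moved pause site can read as a change in level. How the regions were scaled is not stated, so a change common to all genes may have been removed. Tool versions are not given in the sources used here.

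The log2 fold changes were computed by the authors with DESeq2, each knockdown against LacZ RNAi. The adjusted p-values are the authors' own too, with a false discovery rate of 5%. These deposited columns of comparisons were used because the 12 sheets (2 knockdowns, 2 regions, 3 classes) hold nothing else to read. On each sheet, called genes had an adjusted p under 0.05 and unchanged genes one over 0.9. Depth per library was not used here, and a fold change has its precision through the adjusted p alone. The planned edgeR test on counts was not run, since the deposited sheets hold no counts.

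Pairs were built in Python 3.11.15 with pandas 2.3.3 from dm3 coordinates, counted from 1 with both ends included, and the pair finder was tested on simulated data. Current symbols (for Caf1, that of the sheets) came from a reference table of Release 6, used for names alone; 1021 members matched, and 339 carried a symbol other than that of the sheets. Members were counted beside all listed genes and beside other autosomal genes under 20 kb, with no test of the list. The members and the 16 gene lists were chosen with earlier results of these data known. Lists were matched by symbol, and 3 genes of other roles that the patterns took in were removed after the values were seen. Named genes were up to 6 per direction and comparison with the lowest adjusted p, pairs with both genes called, members called in more than 1 comparison, called list members, all their partners, and the 3 closest pairs with a call. The remaining called members and the unchanged pairs named for their function were added after their values were seen. Some named results are not reported here, though the counts include them. Promoter sequences and motifs were not analysed here. The alternatives were 8 other settings of distance, length, threshold, chromosomes and overlap.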

Additional observations from a re-analysis of the deposited data

How the results depend on the processing

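No paired analysis was possible because the sheets hold no values per library, and for the same reason no replicate could be left out. With start sites up to 250 bp apart (86 pairs) the shares were 0% for BEAF RNAi in both regions and directions. Only 60 members were listed for the BEAF promoter and 161 for the BEAF gene body. Over all listed genes the BEAF shares were 2.20% down and 2.67% up for the promoter, and 1.33% and 0.416% for the gene body. Pbro RNAi up calls were 0 of 74 and 0 of 140, beside 1.87% and 1.09%. At such shares few calls would fall on so few genes, so these counts of 0 are not read as a result. The Pbro gene body down share was 1.43% (2 of 140). In these pairs 0 had both genes called in either promoter comparison. A called gene faced an unchanged partner in 0 pairs in the BEAF promoter, BEAF gene body and Pbro promoter and in 1 in the Pbro gene body. The BEAF promoter median of unchanged members was -0.0375. Up to 1000 bp (710 pairs) the Pbro down shares were 3.01% in the promoter (21 of 698) and 1.82% in the gene body (21 of 1152), and the gene body up share 0.347%. Pairs with both genes called numbered 3 in the Pbro promoter and 1 in the Pbro gene body.

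At an adjusted p under 0.01 the BEAF promoter shares were 1.44% down and 0.48% up, the Pbro promoter shares 0.607% down and 0.202% up, and 0 BEAF promoter calls faced an unchanged partner. Shares over all listed genes were not computed at that threshold. With at least 2-fold change the down shares were 0.719% (3 of 417) and 0.207% (2 of 964) in the BEAF promoter and gene body. They were 0.405% (2 of 494) and 0.234% (2 of 853) in the Pbro promoter and gene body. Over all listed genes 16 of 2137, 13 of 4810, 241 of 2510 and 72 of 4127 were down at least 2-fold, in the same order. The up shares of members were 0.24% in the BEAF promoter and 0% in the other 3 comparisons. Over all listed genes 10 of 2137, 1 of 4810, 11 of 2510 and 5 of 4127 were up at least 2-fold. Counts stayed within 1.5 times with no limit on length (528 pairs), with genes under 10 kb (485 pairs) and with chromosomes X and 4 included (608 pairs). Allowing overlap of up to 200 bp added no pair (516 pairs), so that setting could not move a count. Library totals were not used here, and without reads per gene the precision of a fold change is known through its adjusted p alone.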

Other observations

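Beyond the distance limit there were 194 further autosomal pairs with start sites over 500 and up to 1000 bp apart and both genes under 20 kb. Of their listed genes, 16 of 204 were down in the Pbro promoter (7.84%), beside 5 of 494 members (1.01%). At that higher share, 2 of these pairs had both genes down in the Pbro promoter, which is not read as a difference between partners. The paralogs wun and wun2, which encode lipid phosphate phosphatases of the cell surface, start 884 bp apart and fell, at -1.28 (adjusted p = 2.2e-07) and -2.15 (adjusted p = 1.32e-26). CG33120 and CG17321, 608 bp apart, fell as well, at -1.32 (adjusted p = 0.0101) and -1.37 (adjusted p = 1.55e-05). In the Pbro gene body Top2, which encodes topoisomerase 2, rose by 0.23 (adjusted p = 0.0422) while CG10026, 891 bp away, fell by 2.34 (adjusted p = 2.73e-28). CG8399, 616 bp from EMC7, was down in all 4 comparisons, at -1.27 in the BEAF promoter, -1.25 in the BEAF gene body, -1.07 in the Pbro promoter and -0.79 in the Pbro gene body, and EMC7 was listed in the BEAF gene body alone, at -0.00. The call nearest to the limit was on Daxx, a histone chaperone gene 505 bp from Sec61alpha, which fell by 1.55 in the BEAF promoter (adjusted p = 1.11e-09).

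The length limit left out 12 pairs with a gene of 20 kb or more, with 2 calls, both in the Pbro gene body. The coactivator gene tai fell by 0.49 (adjusted p = 0.0173) beside CG9586, unchanged at 0.13, and Hs6st, a heparan sulfate sulfotransferase gene, fell by 0.35 (adjusted p = 0.0408) beside MED25, unchanged at 0.14.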
